A study of Mus musculus with 6 samples.

Results

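The genes described here are 35 named products of stromal and contractile cells other than collagens: matrix glycoproteins and proteoglycans, proteins of the contractile cytoskeleton, mesenchymal receptors and surface proteins, elastic fibre proteins, enzymes and chaperones of collagen processing, and secreted IGF-binding and CCN proteins. They were taken by name from the 34647 gene names on the array, where 46 probes carry them. Each gene is represented by its probe of highest mean signal. Requiring a signal well above background in 2 or more of 5 scanner files left 33 of the 35 genes among 20205 genes in all.

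Stromal cells such as fibroblasts, pericytes and smooth muscle cells lay down the extracellular matrix. They secrete collagens with the glycoproteins and proteoglycans that organise them, crosslink the fibres with lysyl oxidases, and pull on them through actin, myosin and tropomyosin. Many of these genes are read by serum response factor through CArG boxes, or by TEAD factors with the coactivators YAP and TAZ, whose textbook targets include the CCN genes. Macrophages make few of these proteins, fibronectin being a well known exception.

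Samples were RNA of cells labelled polarized M2-like BMM, meaning bone marrow macrophages of an M2-like state, from chimeric mice given fetal liver of WT or c-Maf KO genotype. There were 3 samples of each genotype, and their replicate numbers are those of the titles. According to the labels, suspensions of fetal liver and bone marrow were plated in medium with M-CSF, the macrophage growth factor, at 10 ng/ml, which was replenished daily from day 4 without a change of medium. No depletion or sorting of other cells is named, and the tissue label reads liver for every sample. The KO allele, the hosts and their remaining cells are not described in the labels, nor is the animal or culture behind each replicate. P-values therefore measure a spread among samples that may be technical.

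Maf, the targeted gene, measured 1.92, 1.98 and 2.03 in WT and -2.22, -2.36 and -1.92 in c-Maf KO on the log2 scale defined in the next paragraph, and it was 17.7-fold lower in c-Maf KO (limma, adjusted p = 0.000557). All 13 macrophage markers on the array were well above background, Csf1r and Cd68 being the brightest. Of the 5 arrays with scanner files, 48.9% to 50.5% of probes were well above background and none was saturated. Their number limits the precision. On the slide the WT arrays shared 1 row and the c-Maf KO arrays the other, and the effect of row cannot be told apart from that of genotype.

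None of the 33 kept genes passed the test between genotypes. Yet the log2 difference was positive, that is higher in c-Maf KO, for 31 of them, beside 50.7% of all genes. Values are log2 of the authors' deposited ratios, in which each probe is set against its own median over the 6 samples. With 6 samples that median lies midway between the third and the fourth value, so that these middle values often mirror each other around 0. In 25 of the 33 genes every c-Maf KO sample lay above every WT sample, and in 0 genes every one lay below. Over all 20205 genes the corresponding shares were 11.1% and 8.86%. The median difference of the 33 genes was 0.82, with a range of -0.34 to 2.03, beside a median of 0.0018 over all genes. A difference above 1 was measured for 10 of the 33 genes and for 1.0% of all genes. The limma test with Benjamini-Hochberg adjustment over all 20205 genes called 7 genes (0.0346%), 4 of them higher in c-Maf KO (0.0198%), and 0 of the 33, where the lowest adjusted p was 0.149. Unadjusted, 26 of the 33 genes had p under 0.05, as did 12.6% of all genes; without c-Maf KO replicate 3 it was 14 of the 33 and 15.3% of all. The test on the 5 scanner files alone also called 0 of the 33 (0.0346% of all genes), and so did limma with a trend and robust variance (0.411%).

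**Figure D1:**
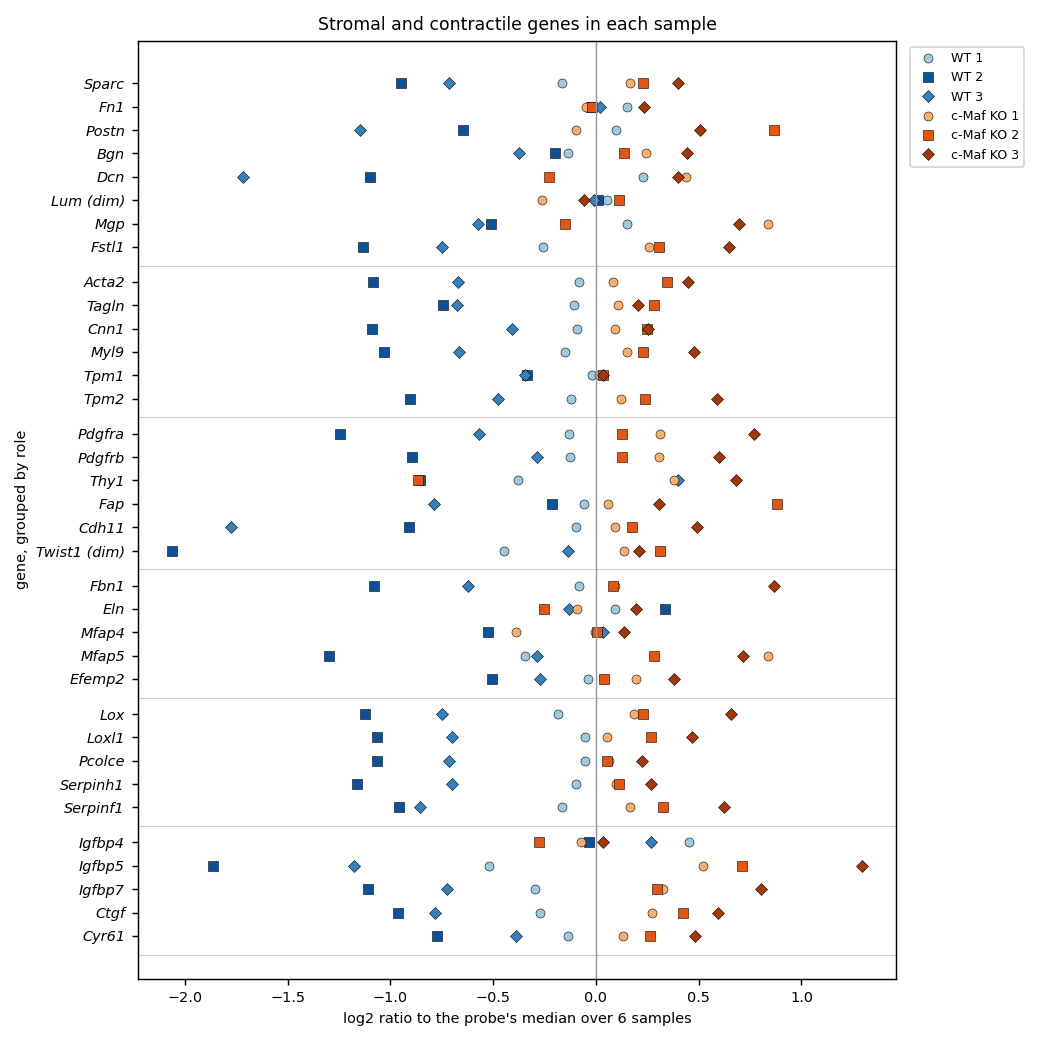
Log2 ratio of each of the 35 genes (rows, in 6 groups by role) to the probe's median over the 6 samples, with 1 point per sample. WT replicates 2 and 3 lie at the low end for most genes and WT replicate 1 lies close to the c-Maf KO samples; Lum and Twist1 are marked as dim because they were not kept.

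The secreted IGF-binding and CCN proteins held the largest difference of the 33 genes. Igfbp5, an IGF-binding protein that also binds matrix, measured -0.52, -1.87 and -1.18 in the WT samples, given as replicates 1, 2 and 3 here and throughout, and 0.52, 0.71 and 1.29 in the c-Maf KO samples. All c-Maf KO samples lay above all WT samples, with WT replicate 2 lowest and c-Maf KO replicate 3 highest. The means were -1.19 ± 0.672 in WT and 0.84 ± 0.403 in c-Maf KO (SD, n = 3 each). The difference of 2.03 (SE 0.372) is 4.08-fold, with a 95% interval of 2.17 to 7.68-fold, and the limma adjusted p was 0.160. On the 5 scanner files the same probe (mm9 chromosome 1, 72904829 to 72904888) differed by 2.19. Ctgf, named Ccn2 in RefSeq, is connective tissue growth factor, a matrix-associated target of TGF-beta and YAP. It measured -0.27, -0.96 and -0.78 in WT and 0.27, 0.42 and 0.59 in c-Maf KO, again without overlap. Its difference (mm9 chromosome 10, 24318281 to 24318340) of 1.10 (SE 0.191, 2.15-fold, 95% interval 1.55 to 2.97-fold) had the lowest adjusted p of the 33 genes, 0.149 by limma. Igfbp7, a secreted protein of vessel and stromal matrix, measured -0.29, -1.11 and -0.73 in WT and 0.33, 0.29 and 0.80 in c-Maf KO (difference 1.19, SE 0.239, limma adjusted p = 0.184). Cyr61, named Ccn1 in RefSeq, is the integrin-binding relative of Ctgf, and it measured -0.13, -0.78 and -0.39 in WT and 0.13, 0.26 and 0.48 in c-Maf KO (difference 0.73, limma adjusted p = 0.229). Both showed the same order of WT samples, with WT replicate 1 nearest to the c-Maf KO samples. Igfbp4, a carrier that keeps IGF from its receptor, ran the other way. It measured 0.45, -0.034 and 0.27 in WT and -0.074, -0.28 and 0.034 in c-Maf KO, the groups overlapped, and the difference was -0.34 (95% interval -0.69 to 0.023, limma adjusted p = 0.421), or -0.22 without WT replicate 1. The median difference of the 5 genes was 1.10, and 4 of them did not overlap.

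Among receptors and surface proteins, 4 of 5 kept genes were higher in every c-Maf KO sample than in every WT sample. Pdgfra, the PDGF receptor of fibroblasts and their progenitors, measured -0.13, -1.25 and -0.57 in WT and 0.31, 0.13 and 0.77 in c-Maf KO. Its difference was 1.05 (SE 0.311, 2.07-fold, limma adjusted p = 0.276). Pdgfrb, the PDGF receptor of pericytes and stromal cells, measured -0.13, -0.89 and -0.29 in WT and 0.31, 0.13 and 0.60 in c-Maf KO (difference 0.78, limma adjusted p = 0.271). Both receptors were lowest in WT replicate 2, and in both WT replicate 1 lay within 0.26 of the lowest c-Maf KO sample. Cdh11, a cadherin that joins mesenchymal cells, measured -0.095, -0.91 and -1.78 in WT and 0.095, 0.18 and 0.49 in c-Maf KO. Here WT replicate 3 rather than 2 was the lowest, and the difference of 1.18 had a wide 95% interval of 0.18 to 2.19 (limma adjusted p = 0.334). Fap, the surface protease of activated fibroblasts, measured -0.060, -0.22 and -0.79 in WT and 0.060, 0.88 and 0.31 in c-Maf KO, with c-Maf KO replicate 2 well above the other samples (difference 0.77, limma adjusted p = 0.338). With normexp background correction of the scanner files the differences of Pdgfra, Pdgfrb, Cdh11 and Fap were smaller, at 0.54, 0.48, 0.58 and 0.47, and that of Cdh11 was 0.76 without WT replicate 3. Thy1, a GPI-anchored protein of fibroblasts and lymphocytes, was well above background on only 1 WT and 1 c-Maf KO array. Its values of -0.38, -0.85 and 0.40 in WT and 0.38, -0.87 and 0.68 in c-Maf KO overlapped, and the difference of 0.34 (95% interval -0.86 to 1.54) was -0.075 with normexp and ranged from 0.033 to 0.81 when replicates were left out. Twist1, a transcription factor of mesenchyme, was not kept: it was above background on 1 c-Maf KO array and on no WT array. In log2 of the signal over the array's 75th percentile it stood at -4.13 and -4.21 in c-Maf KO replicates 2 and 3. Both values exceeded the lowest signal well above background on their arrays (-4.19 and -4.36), yet only 1 passed. That lowest signal is therefore no firm limit for WT, and no minimum fold is given.

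The 6 genes of the contractile cytoskeleton were all higher in each c-Maf KO sample than in each WT sample, with a median difference of 0.77. Acta2 (mm9 chromosome 19, 34316060 to 34316119), the actin of smooth muscle and myofibroblasts, measured -0.084, -1.08 and -0.67 in WT and 0.084, 0.34 and 0.45 in c-Maf KO. The difference was 0.91 (SE 0.258, 1.87-fold, 95% interval 1.21 to 2.90-fold, limma adjusted p = 0.267). Myl9, the regulatory light chain of smooth muscle myosin, measured -0.15, -1.03 and -0.67 in WT and 0.15, 0.23 and 0.48 in c-Maf KO (difference 0.90, SE 0.229, limma adjusted p = 0.237). Tagln, the actin-binding protein transgelin, measured -0.11, -0.74 and -0.68 in WT and 0.11, 0.28 and 0.20 in c-Maf KO (difference 0.71, SE 0.177, limma adjusted p = 0.229). In these 3 genes WT replicate 2 was the lowest sample, WT replicate 3 came next, and the gap between WT replicate 1 and the lowest c-Maf KO sample was smaller than the spread of the WT samples. Cnn1, the actin-binding protein calponin, measured -0.092, -1.09 and -0.41 in WT and 0.092, 0.25 and 0.25 in c-Maf KO (difference 0.73, limma adjusted p = 0.327, and 0.45 without WT replicate 2). Tpm2, a tropomyosin that lies along the actin filament, measured -0.12, -0.91 and -0.48 in WT and 0.12, 0.24 and 0.59 in c-Maf KO (difference 0.82, limma adjusted p = 0.259). Its relative Tpm1 had the smallest difference of the 6, 0.26 (95% interval 0.014 to 0.51), and is described probe by probe further on.

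Matrix glycoproteins and proteoglycans were divided: 3 of 7 kept genes did not overlap and 4 did, with a median difference of 0.87. Fstl1, a secreted glycoprotein of the follistatin family, measured -0.26, -1.14 and -0.75 in WT and 0.26, 0.31 and 0.65 in c-Maf KO. Its difference was 1.12 (SE 0.236, 2.17-fold, 95% interval 1.46 to 3.24-fold, limma adjusted p = 0.193). Sparc, a collagen-binding matrix protein, measured -0.16, -0.95 and -0.72 in WT and 0.16, 0.23 and 0.40 in c-Maf KO (difference 0.87, SE 0.204, limma adjusted p = 0.227). Bgn, the proteoglycan biglycan, measured -0.14, -0.20 and -0.38 in WT and 0.24, 0.14 and 0.44 in c-Maf KO (difference 0.51, SE 0.106, limma adjusted p = 0.191). Its range within WT was narrower than that of Fstl1 or Sparc. These 3 are the genes without overlap. Dcn, the related proteoglycan decorin, measured 0.23, -1.10 and -1.72 in WT and 0.44, -0.23 and 0.40 in c-Maf KO. It had the widest spread of the 33 genes within WT, with an SD of 0.993: WT replicate 1 lay among the c-Maf KO samples and WT replicates 2 and 3 far below. The 95% interval of its difference of 1.07 was -0.16 to 2.29. The difference was 0.36 with normexp, 0.64 without WT replicate 3 and 1.61 without WT replicate 1. Postn, the fibroblast protein periostin, measured 0.096, -0.65 and -1.15 in WT and -0.096, 0.87 and 0.51 in c-Maf KO (difference 0.99, limma adjusted p = 0.367). Mgp, matrix Gla protein, an inhibitor of calcification, measured 0.15, -0.51 and -0.57 in WT and 0.84, -0.15 and 0.70 in c-Maf KO (difference 0.77, limma adjusted p = 0.401). In both, as in Dcn, WT replicate 1 lay above 1 c-Maf KO sample. Fn1, fibronectin, which macrophages also make, measured 0.15, -0.023 and 0.021 in WT and -0.047, -0.021 and 0.24 in c-Maf KO. Its difference was 0.0062 with a 95% interval of -0.24 to 0.25, and its sign turned under several settings. Lum, the proteoglycan lumican, was not well above background on any array.

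Elastic fibre and microfibril genes had a median difference of 0.48, and 3 of 5 did not overlap. Mfap5, a microfibril glycoprotein, measured -0.35, -1.30 and -0.28 in WT and 0.84, 0.28 and 0.72 in c-Maf KO, and its difference was 1.26 (SE 0.304, 2.39-fold, limma adjusted p = 0.227), or 0.72 with normexp. It was 1 of 4 genes in which WT replicate 1 was not the highest WT sample. Fbn1, fibrillin, the backbone of microfibrils, measured -0.081, -1.08 and -0.62 in WT and 0.091, 0.081 and 0.86 in c-Maf KO, where c-Maf KO replicates 1 and 2 lay close to WT replicate 1 (difference 0.94, limma adjusted p = 0.327). Efemp2, the fibulin that brings lysyl oxidase to elastin, measured -0.041, -0.50 and -0.27 in WT and 0.20, 0.041 and 0.38 in c-Maf KO (difference 0.48, limma adjusted p = 0.282). Eln, elastin itself, did not share this order. It measured 0.091, 0.34 and -0.13 in WT and -0.091, -0.25 and 0.19 in c-Maf KO, with WT replicate 2 the highest of all samples, and its difference was -0.15 (95% interval -0.54 to 0.24), with -0.27 to -0.032 when replicates were left out. Mfap4, a fibrinogen-domain protein of microfibrils, measured -0.0045, -0.52 and 0.034 in WT and -0.39, 0.0045 and 0.14 in c-Maf KO (difference 0.081, 95% interval -0.41 to 0.57). In Eln and Mfap4 the groups overlapped.

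The 5 genes of crosslinking and collagen processing shared 1 order of the WT samples: all were without overlap, and in all of them WT replicate 2 was lowest, WT replicate 3 next and WT replicate 1 the highest WT sample. Lox, lysyl oxidase, the enzyme that crosslinks collagen and elastin, measured -0.18, -1.12 and -0.75 in WT and 0.18, 0.23 and 0.66 in c-Maf KO (difference 1.04, SE 0.259, limma adjusted p = 0.229). Serpinf1, the collagen-binding serpin also called PEDF, measured -0.17, -0.96 and -0.86 in WT and 0.17, 0.33 and 0.62 in c-Maf KO (difference 1.03, SE 0.235, limma adjusted p = 0.215). Loxl1, the lysyl oxidase of elastic fibres, measured -0.055, -1.06 and -0.70 in WT and 0.055, 0.27 and 0.47 in c-Maf KO (difference 0.87). Serpinh1, the collagen chaperone of the endoplasmic reticulum, measured -0.099, -1.16 and -0.70 in WT and 0.099, 0.11 and 0.27 in c-Maf KO (difference 0.81). Pcolce, which speeds the removal of the procollagen C-propeptide, measured -0.052, -1.06 and -0.71 in WT and 0.063, 0.052 and 0.23 in c-Maf KO (difference 0.72). The limma adjusted p of these last 3 was 0.283, 0.297 and 0.333. In all 5 genes the lowest c-Maf KO sample and WT replicate 1 were closer to each other than WT replicate 1 was to either other WT sample.

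**Figure D2:**
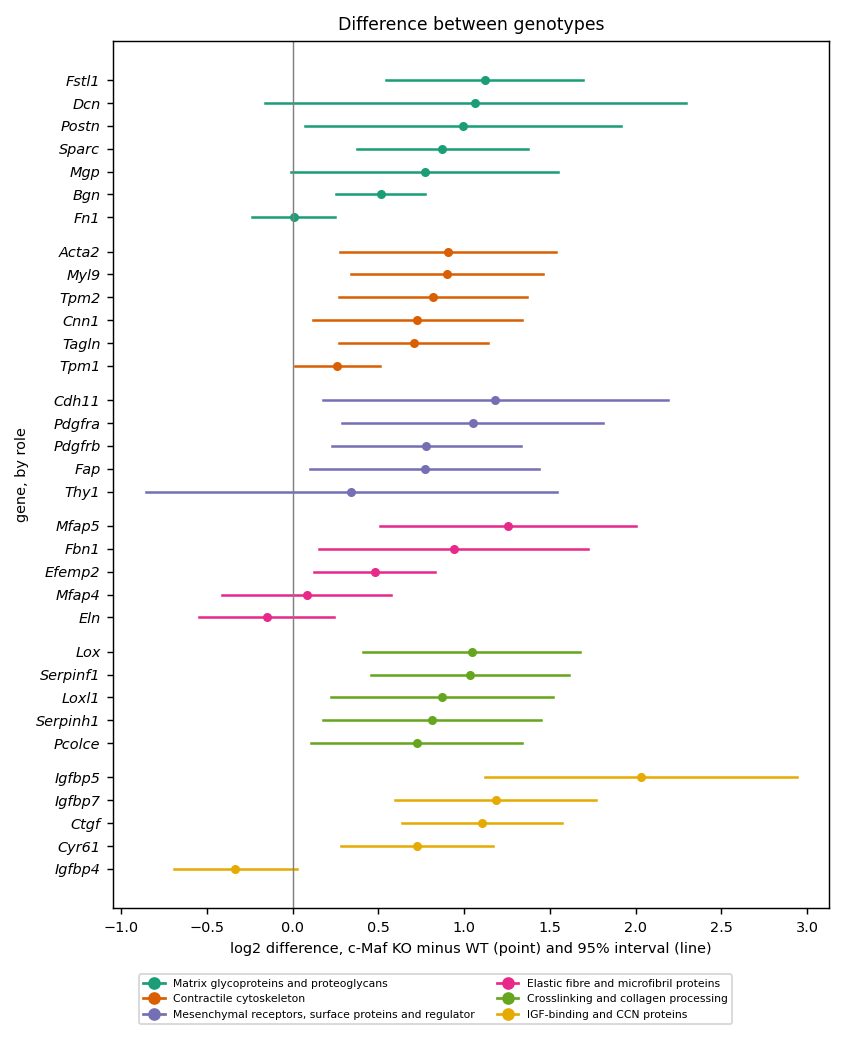
Log2 difference, c-Maf KO minus WT, of the 33 kept genes (points) with the 95% interval of the limma fit (lines), coloured by role, n = 3 per genotype. Eln and Igfbp4 lie below 0, Igfbp5 stands at 2.03, and 26 of the 33 intervals lie wholly above 0, without adjustment for the number of genes tested (14 of the 33 had an unadjusted p under 0.05 without c-Maf KO replicate 3).

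Over the samples, WT replicate 1 stood apart from the other WT samples for most of the 33 genes. Their mean log2 ratio was -0.091, -0.82 and -0.59 in the WT samples and 0.18, 0.17 and 0.48 in the c-Maf KO samples. WT replicate 1 thus lay nearer to c-Maf KO replicates 1 and 2 than to either other WT sample. It was the highest WT sample for 29 of the 33 genes, against 33% of all genes, and by more than 0.5 for 16 of them, against 2.15% of all genes. WT replicate 2 was the lowest of the 6 samples for 22 genes, WT replicate 3 for 7, c-Maf KO replicate 2 for 3 and c-Maf KO replicate 1 for 1. The highest sample was c-Maf KO replicate 3 for 24 genes, c-Maf KO replicate 2 for 4, c-Maf KO replicate 1 for 3, and WT replicates 1 and 2 for 1 each. WT replicates 2 and 3 were both below every c-Maf KO sample for 28 genes, whereas WT replicate 1 lay above at least 1 c-Maf KO sample for 8. The median gene was 0.66 higher in WT replicate 1 than in the mean of the other WT samples, and its c-Maf KO mean was 0.41 above WT replicate 1. The median SD within WT was 0.43, beside 0.095 over all genes, and within c-Maf KO 0.21, beside 0.11. The WT SD exceeded the c-Maf KO SD in 28 of the 33 genes and in 41.1% of all genes. The 33 genes were chosen as a set of related genes, with earlier results of these data known, and they share the 6 samples. These counts are therefore a description of 6 samples, and the shares of all genes are no test of them.

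With WT replicate 1 left out, 3 of the 33 genes passed the test, with 0.495% of all genes called and 0.465% called as higher. These were Sparc (brightest probe, 1.09, limma adjusted p = 0.0487), Tagln (0.91, adjusted p = 0.0423) and Ctgf (1.30, adjusted p = 0.0441), all higher in c-Maf KO. WT replicate 1 was the highest WT sample for 29 of the 33 genes, these 3 among them. Leaving it out therefore raises their differences by itself, and no conclusion is drawn from these calls. The median difference of the 33 genes was then 1.09, and it was 0.67 without WT replicate 2. Leaving out any other replicate called 0 of the 33. WT replicates 1 and 3 carry a shared tag in their file names, which the labels do not explain; counted as 1 sample, they left 0 of the 33 called and 28 higher without overlap, as 15.5% of all genes then were.

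**Figure D3:**
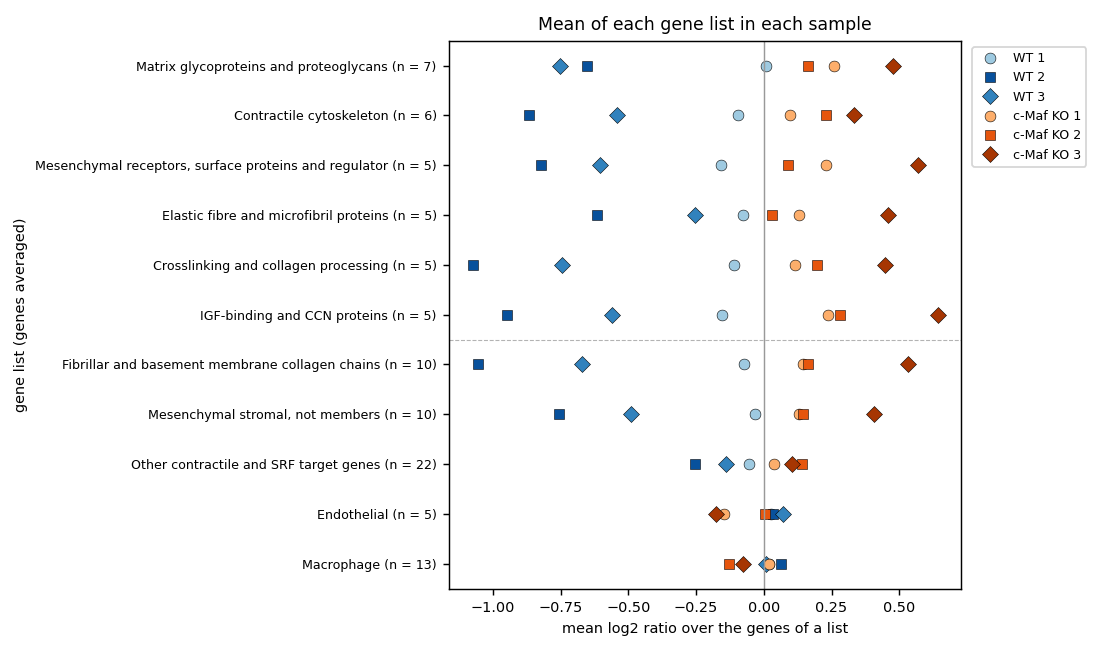
Mean log2 ratio over the kept genes of each list in each sample, for the 6 role groups of the 33 genes (above the dashed line) and for 5 other lists (below it). WT replicate 1 lies between the other WT samples and the c-Maf KO samples in the 6 role groups, the collagens and the other mesenchymal markers, while the macrophage means span only -0.13 to 0.063.

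For 7 of the 33 genes several probes were measured, and those of Sparc and Tpm1 did not all run the same way. The 3 Sparc probes lie on chromosome 11 of mm9 on the minus strand, at 55208939 to 55208998, 55208002 to 55208061 and 55207772 to 55207831. The last 30 bases of each probe are shown because the third reads apart from the other 2.
A_55_P2046812: atagatttaactgaatacattaacggtgct
A_55_P2046807: caaaataaaaagtaacaacttagaaacggc
A_55_P2122835: tgggatgtagctcagttggtaaagtgctta
Probe A_55_P2046812, the brightest and the one used above, differed by 0.87, and the mean of the 3 probes by 0.43. Probe A_55_P2046807 measured -0.10, -1.14 and -0.76 in WT and 0.10, 0.16 and 0.36 in c-Maf KO, a difference of 0.87 with the same order of samples. Probe A_55_P2122835 measured 0.20, 0.29 and 0.17 in WT and -0.31, -0.17 and -0.22 in c-Maf KO, a difference of -0.46: every c-Maf KO sample lay below every WT sample, and WT replicate 1 did not stand apart. All 3 were well above background on the 5 arrays. None shares 20 bases with a probe of another name, as 7.21% of all probes do. That search covered exact matches among the probes of the array alone. Whether a probe also reads other sequences, such as repeats, was not tested. Which exon or untranslated part each probe reads was not analysed here, for Sparc or for the other genes.

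Tropomyosin genes give many isoforms through alternative exons, and the 5 Tpm1 probes on chromosome 9 differed among themselves. The probe used above is shown with a second one whose values differ from it, and the capitals mark a stop codon at the end of the first.
Tpm1 A_55_P2032192: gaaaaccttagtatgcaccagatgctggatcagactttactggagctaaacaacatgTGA
Tpm1 A_55_P2078680: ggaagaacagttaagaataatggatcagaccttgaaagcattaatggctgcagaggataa
Probe A_55_P2032192, the brightest, measured -0.017, -0.34 and -0.34 in WT and 0.017, 0.036 and 0.033 in c-Maf KO (difference 0.26). WT replicate 1 lay 0.034 below the lowest c-Maf KO sample, while WT replicates 2 and 3 lay further down. Probe A_55_P2078680 measured -0.068, -0.023 and -0.047 in WT and 0.062, 0.093 and 0.023 in c-Maf KO (difference 0.11), a narrow range in which WT replicate 1 was the lowest sample. Probe A_55_P2187053 measured 0.094, 0.081 and 0.0088 in WT and -0.0088, -0.043 and -0.038 in c-Maf KO and was lower in each c-Maf KO sample (difference -0.091). The dimmer probes A_55_P2187038 and A_55_P2187043, which overlap by 46 bases, gave 0.66 and 0.79. They did not share 1 pattern either: A_55_P2187043 measured 1.498 in c-Maf KO replicate 3, far above its other values, where A_55_P2187038 measured 0.38. Both Tpm2 probes ran alike, with differences of 0.82 and 1.00. For Lox (1.04 and 0.91), Loxl1 (0.87 and 1.49), Serpinf1 (1.03 and 1.03) and Cdh11 (1.18 and 0.66) the probes had the same sign, although the second Cdh11 probe overlapped between genotypes and shares 20 bases with a probe of another name.

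**Figure D4:**
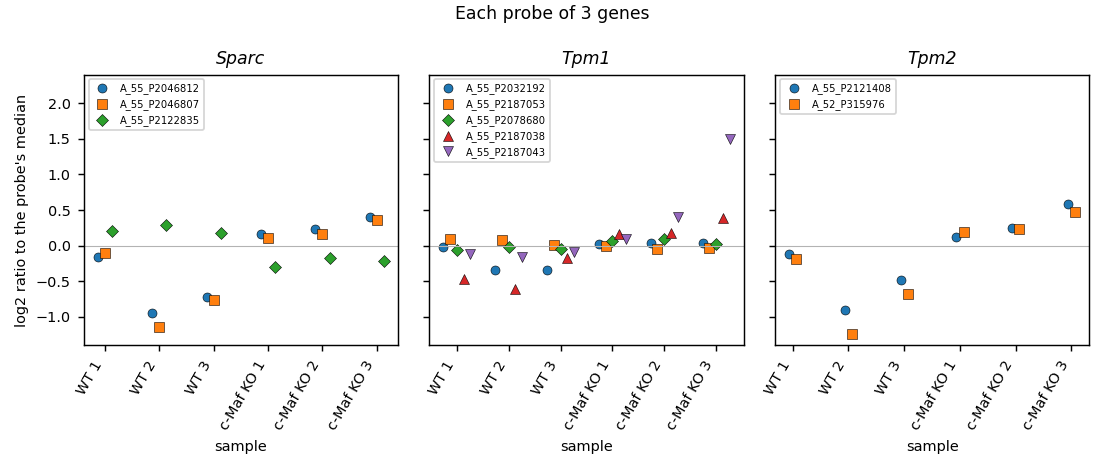
Log2 ratio of every probe of Sparc, Tpm1 and Tpm2 in each sample, relative to that probe's median over the 6 samples. Sparc probe A_55_P2122835 is above 0 in the WT samples and below 0 in the c-Maf KO samples, opposite to the other 2 Sparc probes, and the Tpm1 probes differ among themselves.

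Promoters were looked at because most of the genes shared the order of the WT samples. The RefSeq table of GRCm38.p6 promoters held 20 of the 35 genes with 23 promoters, and the 250 bases before each start were searched for exact matches with no mismatch allowed, on both strands except for TATAAA, which was searched on the strand of the gene. CATTCC, the MCAT motif known from TEAD factors, was in 4 of the 23 and in 12.6% of all 32851 promoters. TGCTGA, the half-site known from MAF factors, was in 4 of the 23 and in 16.1% of all. The CArG box (CC, A or T at each of the next positions, then GG) was in 1 of the 23, that of Myl9, and in 1.47% of all. Near matches were not counted, such as ccctatatgg in the Acta2 stretch below, which has a C in place of an A or T. TATAAA was in 4 of the 23 and in 7.59% of all. The stretches of 4 genes are shown as the places where these letters stand, with the matches in capitals. A match on the other strand, as the first in Acta2 and that in Sparc, appears as its reverse complement.
Igfbp5: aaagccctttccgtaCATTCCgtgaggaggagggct
Acta2: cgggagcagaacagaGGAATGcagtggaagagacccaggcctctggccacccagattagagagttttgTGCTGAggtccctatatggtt
Myl9: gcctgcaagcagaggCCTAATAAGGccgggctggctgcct
Sparc: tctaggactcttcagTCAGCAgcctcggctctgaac
The Igfbp5 stretch lies at chr1:72875078-72875113 on the minus strand and its match 233 bases before the start. Acta2 (chr19:34255446-34255534, minus strand) holds both hexamers, 146 and 93 bases before the start, without overlap. Myl9 (chr2:156775288-156775327, plus strand) holds the CArG box 161 bases before the start. Sparc (chr11:55420170-55420205, minus strand) holds TGCTGA 110 bases before the start. A match is a description of letters, and binding was not measured in these samples.

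Other genes of the same pathways were counted from 5 lists with 87 genes, of which 78 were kept. The test called 0 of the 78 (lowest adjusted p = 0.111 by limma), and their median difference was 0.73. An unadjusted limma p under 0.05 was found for 46 and a positive difference for 61, beside 12.6% and 50.7% of all genes. Without overlap, 45 were higher and 4 lower in c-Maf KO, beside 11.1% and 8.86% of all genes. Of the 45, 5 (Tnc, Plod2, Prelp, Synpo2 and Wwtr1) were kept through c-Maf KO arrays alone, being above background on no WT array, so that their direction in these counts supports nothing. The 10 collagen chains had a median difference of 0.83, and 9 did not overlap; Col1a2, Col1a1, Col6a1 and Col6a3, the brightest, differed by 0.94, 0.80, 0.81 and 0.76. Of 28 other matrix genes, 18 were higher and 1 lower without overlap (median 0.77). Thbs1, the matrix glycoprotein thrombospondin, and Ltbp2, a microfibril protein, differed by 0.89 and 1.18, whereas Ecm1 and the laminin chain Lamc1 differed by 0.023 and -0.099. Of 12 other IGF-binding, CCN and YAP-related genes, 8 were higher without overlap (median 0.80): the coactivator Yap1 differed by 1.03 and the CCN gene Wisp2 by 1.24, but the receptor kinase Axl by 0.24 and Amotl2, an angiomotin that binds YAP, by 0.14. The 6 ligands of PDGF and TGF-beta receptors had a median of 0.25, with Pdgfb at -0.10, Pdgfa at 0.20, Tgfb1 at -0.16 and Tgfb3 at 0.75.

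The 22 other contractile and serum response factor genes had a median difference of 0.027, beside 0.77 for the 6 contractile genes above. Without overlap, 8 were higher and 2 lower in c-Maf KO, beside 11.1% and 8.86% of all genes. Synpo2, 1 of the 8, was kept through c-Maf KO arrays alone. The cytoplasmic actins Actb and Actg1, present in every cell, differed by -0.093 and -0.060, the transgelin relative Tagln2 by -0.099 and the myosin light chain Myl6 by 0.16. Myocd, the smooth muscle coactivator of serum response factor, was not well above background on any array. Without WT replicate 1, 8 of the 78 genes passed (0.495% of all genes), chosen here after their values were seen. Fbln5, Fmod, Wisp1, Wisp2, Ankrd1, Tgfb3 and Col5a2 then differed by 1.33, 1.13, 1.43, 1.49, 1.83, 0.88 and 1.68. The other was Prelp, which was above background on no WT array and was kept through c-Maf KO arrays alone. WT replicate 1 was the highest WT sample for 54 of the 78 genes. Leaving it out raises the differences of those 54 by itself, and no conclusion is drawn from these calls. With a trend and robust variance, 3 passed (0.411% of all genes), of which only Ltbp2 (limma adjusted p = 0.0464) was above background in both genotypes. The others were kept through c-Maf KO arrays alone. These were Synpo2, an actin-binding protein of muscle, and Wwtr1, the coactivator TAZ, neither well above background in any WT array. The filter favoured their direction, so their calls support nothing.

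Markers of the cell types a mixed culture could hold were set beside these values. The 10 kept of 11 mesenchymal markers outside the 35 genes, 3 of them collagens counted above, had list means of -0.76 to -0.034 in WT and 0.13 to 0.41 in c-Maf KO. WT replicate 1 was the highest WT sample for 9 of the 10, and 7 of them did not overlap, all higher in c-Maf KO. In the list means the WT samples stood in the order described for the 33 genes, below the c-Maf KO samples. Within that list Lepr, the leptin receptor of marrow stroma, and Vcam1, an adhesion molecule that macrophages also carry, differed by -0.27 and 0.032. The 13 macrophage markers had means of 0.0088 to 0.063 in WT and -0.13 to 0.018 in c-Maf KO, with a median difference of -0.088. Of these 13, 2 had a positive difference, and 4 were lower and 1 higher without overlap, beside 8.86% and 11.1% of all genes. Of 8 pericyte and smooth muscle markers only Cspg4 and Mcam were kept, at 0.72 and 0.19, while Des, Myh11, Rgs5, Abcc9, Kcnj8 and Notch3 were not kept. The means of the 2 kept were -0.32, -0.020 and -0.38 in WT and 0.30, 0.23 and 0.11 in c-Maf KO. Here WT replicate 2 had the highest WT mean, unlike in the 33 genes, and WT replicate 1 was the highest WT sample for 0 of the 2. Endothelial markers, 5 of 9 kept, had means of 0.026 to 0.072 in WT and -0.18 to 0.0055 in c-Maf KO, and Cdh5, Tek, Tie1 and Emcn were not kept. Of the hepatocyte markers 4 of 8 were kept, without Alb, Apoa1, Ttr and Fgb, with means of -0.072 to 0.10 in WT and -0.19 to 0.13 in c-Maf KO. Osteoblast and chondrocyte markers, 4 of 8 kept, had means of -1.05 to 0.27 in WT and 0.23 to 0.27 in c-Maf KO. Of these 4, 3 had a positive difference, among them Alpl and Col2a1 with 0.94 and 1.16. Their median difference was 0.76 and the lowest was -0.030. Of the epithelial markers only Cdh1 was kept (0.86). Means of the 5 of 7 adipocyte markers kept were -0.042 to 0.025 in WT and -0.084 to 0.20 in c-Maf KO, those of the 2 of 6 erythroid markers -0.26 to 0.25 in WT and -0.085 to 0.52 in c-Maf KO, and those of the 5 of 8 mast cell and granulocyte markers -0.25 to 0.99 in WT and -0.65 to 0.77 in c-Maf KO. In RNA of a whole culture, fewer cells of a type and less RNA per cell cannot be told apart, and the part of stromal cells in the values of the 33 genes was not tested.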

How the data were processed

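RNA of 6 samples was measured on 1-colour Agilent mouse arrays. The scanner intensity values of 5 arrays were extracted with Agilent Feature Extraction 10.7.3.1, per the submitters' processing notes; c-Maf KO replicate 1 enters through the value table alone. The authors' deposited value table holds a ratio per probe for all 6 samples, with its scale not stated. Its log2 values, centred over the 5 arrays, correlated with the scanner values scaled to the 75th percentile at r = 1 (root mean square difference 0.0056 to 0.012), so the ratio was taken as linear and relative to each probe's median. Column medians of this deposited table were 0.024, 0.0070 and -0.0088 (WT) and -0.057, 0.068 and -0.054 (c-Maf KO) in log2. The sources used here do not give the authors' treatment of low values.

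Control spots and 134 to 167 of 59305 spots per array flagged as outliers were left out, and spots of a probe were averaged. Of 55668 probes, 28273 were well above background (at least 50% of a probe's spots) on 2 or more of the 5 arrays; per gene the brightest was taken. Gene names and coordinates (mm9) are those of the files. Log2 ratios were tested with limma 3.58.1 in R 4.3.3 (lmFit, eBayes), 3 samples against 3, with Benjamini-Hochberg adjusted p under 0.05; an interval is the fit's 95% interval. No fold is given for genes that were well above background on no WT array. The 35 genes and all lists were chosen with earlier results of these data known. Named genes were all 35, Maf and, of each other list, the called genes or the 4 of highest signal; further names were chosen after their values were seen, including those shown as not kept. The fit was tested on simulated data. Alternatives were the scanner values (75th percentile, or normexp with offset 50), quantile normalization, median subtraction, other filters, the mean of probes, a trend and robust variance, array weights (statmod 1.5.0), a replicate block, WT replicates 1 and 3 as 1 sample, each replicate left out, and an adjusted p under 0.1. All 5 arrays were on 1 slide.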

Additional observations from a re-analysis of the deposited data

How the results depend on the processing

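The count of called genes among the 33 was 0 under every alternative but the omission of WT replicate 1: leaving out each replicate in turn gave 0 to 3 called of the 33 and 0 to 8 called of the 78 other pathway genes, the upper value being that without WT replicate 1 both times. A trend and robust variance called 3 of the 78. The cause of these differences was not tested. The median difference of the 33 genes ranged from 0.67 (without WT replicate 2) to 1.09 (without WT replicate 1), and the number higher without overlap from 25 to 28, while that share of all genes ran from 7.85% (no filter) to 23.6% (without c-Maf KO replicate 3). The number with an unadjusted p under 0.05 was 14 (without c-Maf KO replicate 3) to 28. Where 33 genes were tested, 29 to 31 differences were positive. The differences of 3 genes turned sign. Fn1 measured -0.012 with quantile normalization and -0.024 with array weights, and leaving out each replicate gave -0.084 to 0.058, below 0 without WT 2 (-0.030), WT 3 (-0.0085) or c-Maf KO 3 (-0.084). Mfap4 ranged from -0.098 (without WT 2) to 0.235 when replicates were left out, and was -0.028 without c-Maf KO 3. Thy1 measured -0.075 with normexp. With a replicate block, 0 of the 33 were called, the lowest adjusted p was 0.274 and 3 genes were called in all, against 7 without the block. The labels do not say that a replicate number is a shared mouse or day, so the numbers were not taken as a pairing. Deviations of same-numbered samples from their group means correlated at r = -0.029, -0.061 and 0.039. With 3 samples per genotype this cannot exclude a pairing. Over all genes, 2 to 100 were called across the alternatives. Normexp lowered Dcn, Pdgfra, Pdgfrb, Fap, Cdh11 and Mfap5 by over 1.5 times. Signals near background limit Thy1, Eln, Lum and Twist1, and 3 samples per genotype limit every test. Single WT values of other genes were also near background, in log2 of the signal over the 75th percentile. Dcn, Cdh11 and Fap stood at -3.87, -3.73 and -3.49 in WT replicate 3, where the lowest signal well above background was -4.31. Pdgfra stood at -3.51 in WT replicate 2, where that lowest signal was -4.29.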
